A study of Mus musculus with 10 samples.

Results

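Itgam, Cd14, Csf2ra and Fes are 4 of the 597 named genes on a mouse cDNA membrane, and were taken by the gene name printed beside each spot. Each is present as 2 spots, so 8 of 1194 gene spots are described here. The first 3 encode surface proteins of monocytes, macrophages and granulocytes, and Fes encodes a tyrosine kinase of the cytoplasm. The RNA was that of splenocytes, a mixture of lymphocytes, myeloid cells and other cells released from the spleen, and the mice were FVB aged 6 weeks. The transgenic group (7 arrays) carried CD22DE12, which is known as a form of the B cell co-receptor CD22 made from a transcript that lacks an exon, and the wild-type group (3 arrays) carried no transgene. The sources used here do not give the promoter of the transgene, the number of founder lines or whether animals were pooled. Whether every array had a mouse of its own is not stated either, and the p-values then measure only the spread between these samples, which may be technical.

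Myeloid cells are a minority in the spleen, where red pulp macrophages clear old red cells and monocytes and neutrophils stand in reserve. Itgam is the alpha M chain of the integrin Mac-1 (CD11b), which pairs with the beta 2 chain and binds complement fragments, fibrinogen and ICAM1. Cd14 holds bacterial lipopolysaccharide for the receptor complex of TLR4. Csf2ra is the ligand-binding alpha chain of the receptor for GM-CSF, a growth and survival factor of granulocytes and macrophages, and it signals with a shared beta chain through JAK2 and STAT5. Fes is abundant in the myeloid lineage and acts downstream of cytokine receptors. In RNA from a mixed tissue, fewer cells of a type and less RNA per cell cannot be told apart.

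The transcription factor PU.1, an ETS family member that directs myeloid development, binds purine-rich DNA with the core GAGGAA. The promoter windows of 3 of the 4 genes stood in the RefSeq table (build GRCm38.p6, 250 bases before to 50 bases after the annotated start), and they are shown because PU.1 is a regulator common to myeloid genes. They are written 5′ to 3′ in the direction of the gene, with capitals marking GAGGAA or its reverse complement TTCCTC.
Itgam, chr7:128062390-128062689, plus strand: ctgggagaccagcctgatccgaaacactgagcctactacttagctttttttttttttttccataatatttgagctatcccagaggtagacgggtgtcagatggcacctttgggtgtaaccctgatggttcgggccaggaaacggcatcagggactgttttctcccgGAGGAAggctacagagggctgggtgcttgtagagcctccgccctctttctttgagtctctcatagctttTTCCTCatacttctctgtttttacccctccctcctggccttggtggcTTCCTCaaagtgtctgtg
Csf2ra, chr19:61228369-61228668, minus strand: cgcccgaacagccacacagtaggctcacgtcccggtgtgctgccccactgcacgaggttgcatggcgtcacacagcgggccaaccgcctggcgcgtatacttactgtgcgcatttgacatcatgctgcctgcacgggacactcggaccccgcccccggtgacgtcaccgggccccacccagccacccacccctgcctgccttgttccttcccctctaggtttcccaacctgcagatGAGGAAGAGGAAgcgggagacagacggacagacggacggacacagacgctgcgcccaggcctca
Fes, chr7:80387897-80388196, minus strand: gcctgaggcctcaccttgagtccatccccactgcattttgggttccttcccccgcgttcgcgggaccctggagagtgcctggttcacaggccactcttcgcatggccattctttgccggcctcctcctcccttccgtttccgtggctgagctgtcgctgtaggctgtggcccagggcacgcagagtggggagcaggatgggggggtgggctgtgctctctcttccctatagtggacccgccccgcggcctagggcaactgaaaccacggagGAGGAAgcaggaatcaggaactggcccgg
The Itgam window held 1 forward and 2 reverse matches, the Csf2ra window 2 forward matches side by side, and the Fes window 1 forward match. On either strand the 6 letters occur in 28.3% of the 32851 promoter windows of this length, so a match is a description of these letters and not a binding site.

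By the clock time of quantification, read without the date, the 10 arrays fell into 2 sittings. Transgenic replicates 6 and 7, in the second, were dim: their median signals above background were 4.51 and 3.87 grey levels, and the others had 13.4 to 18.8. All 3 wild-type arrays belonged to the first. Levels below are given first as grey levels above the local background, the mean of the 2 spots, and then as normalized log2 signal. A spot coded 0 in the files was taken as above background and one coded 2 as not. For all 4 genes at least 1 of the 2 spots was above background on all 10 arrays, and both were on 9 arrays for Itgam, on 10 for Cd14 and Csf2ra, and on 8 for Fes. Among markers of the expected spleen cells, 6 of 6 measured B cell markers and 9 of 11 T cell markers were above background on all 10 arrays. Over the membrane 357 of 597 genes were, and 463 to 550 genes were on a single array. Being above background is thus weak evidence of expression. Prtn3, a protease of granulocyte precursors, was above background on none of the 10 arrays.

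Before normalization the 3 surface genes were, on average, brighter in transgenic splenocytes and Fes was dimmer, and the groups overlapped for all 4. Itgam spots lay 6.61 (lowest), 17.3 (median) and 28.7 (highest) grey levels above background in the 7 transgenic samples and 22.5, 14.4 and 5.53 in wild-type replicates 1, 2 and 3. The 2 dim transgenic arrays and wild-type replicate 3 formed the low end, and transgenic replicate 4 the high end. Cd14 lay at 10.5, 46.3 and 78.3 in the transgenic samples and at 37.0, 38.2 and 27.4 in the wild-type samples. Transgenic replicate 4 was again the brightest and transgenic replicate 6 the dimmest. Csf2ra lay at 73.0, 118 and 137 in the transgenic samples and at 93.5, 114 and 102 in the wild-type samples. Fes lay at 5.56, 13.2 and 22.9 in the transgenic samples and at 24.7, 18.1 and 20.5 in the wild-type samples. Fes was thus faint in both groups, and its 2 lowest readings were those of the dim arrays.

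**Figure D1:**
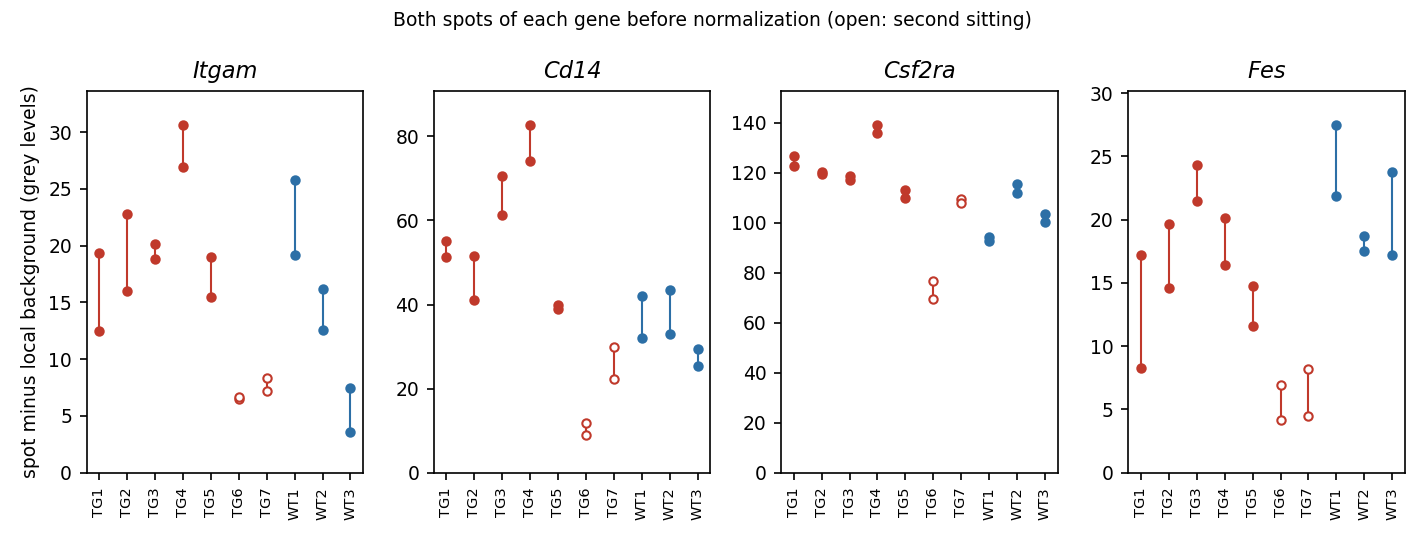
Signal of both spots of each gene minus its local background, in grey levels, on the 7 transgenic arrays (TG1 to TG7, red) and the 3 wild-type arrays (WT1 to WT3, blue). Each line joins the 2 spots of 1 array, open circles mark the second sitting, and each panel has its own axis from 0. TG4 is the brightest array for Itgam, Cd14 and Csf2ra, at 28.7, 78.3 and 137 grey levels as the mean of its 2 spots.

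Among first-sitting arrays alone, the unnormalized groups lay apart for 1 of the 4 genes, Cd14, and for 19 of 597 genes (3.18%) over the membrane. The gap was narrow. Its transgenic spots lay at 39.4 to 78.3 grey levels, with a mean of 56.7 ± 15.6 (SD, n = 5), and the brightest wild-type value was 38.2, with a mean of 34.2 ± 5.95 (SD, n = 3). Csf2ra stood at 122 ± 9.75 (SD, n = 5) against 103 ± 10.2 (SD, n = 3), Itgam at 20.2 ± 5.03 (SD, n = 5) against 14.1 ± 8.48 (SD, n = 3), and Fes at 16.8 ± 4.15 (SD, n = 5) against 21.1 ± 3.32 (SD, n = 3). The raw Csf2ra spots, background included, reached 216 grey levels where the brightest spot on any array was 248, and whether the image was linear up to there is not stated in those sources.

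After normalization none of the 4 genes passed the test of transgenic against wild-type samples. Cd14 differed most, by 0.15 on the log2 scale (transgenic minus wild type), followed by Csf2ra at 0.12 and Itgam at 0.11, and Fes differed by -0.11. By limma with Benjamini-Hochberg adjustment over all 597 genes, 0 of the 4 were called, and 0 of 597 (0.00%) over the membrane. At an unadjusted p under 0.05 stood 2 of the 4, Csf2ra and Fes, where 43 of 597 genes (7.20%) did. In none of the 4 were the groups apart, which 10 of 597 genes (1.68%) were. The difference was above 0 for 3 of the 4 genes (51.8% of all genes) and below 0 for 1 (48.2%). The genes were picked out with earlier results of these data known, so these counts carry no evidence about myeloid genes as a class. Every signal had 50 grey levels added before the log2 step, which understates the differences, most of all for the faint Itgam and Fes.

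Csf2ra, the GM-CSF receptor chain, had normalized log2 signals of 7.22 (lowest), 7.33 (median) and 7.45 (highest) in the 7 transgenic samples and 7.21, 7.22 and 7.26 in wild-type replicates 1, 2 and 3. Of the transgenic samples 6 of 7 lay above the wild-type mean, and replicate 5 lay among the wild-type values. The means were 7.35 ± 0.08 (SD, n = 7) and 7.23 ± 0.03 (SD, n = 3), which differed by 0.12 (standard error 0.048, 95% interval 0.01 to 0.22). Limma gave an adjusted p of 0.606 (unadjusted 0.0318). An exact permutation test, two-sided and over 120 splits, gave p = 0.05, where 0.00833 is the smallest p possible. Among the first-sitting arrays, normalized anew, the difference was 0.10 (exact permutation p = 0.0893, n = 5 and 3), and with no background correction it turned to -0.018.

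Cd14, the lipopolysaccharide co-receptor, had the widest spread of the 4 genes. Its normalized log2 signals were 6.21, 6.49 and 6.76 (lowest, median, highest) in transgenic samples and 6.48, 6.32 and 6.26 in wild-type replicates 1, 2 and 3. Transgenic replicate 6 lay below all wild-type samples and the other 6 transgenic samples above the wild-type mean. The means were 6.50 ± 0.16 (SD, n = 7) and 6.35 ± 0.12 (SD, n = 3), which differed by 0.15 (standard error 0.094, 95% interval -0.06 to 0.35). Limma gave an adjusted p of 0.854, and the exact permutation test gave p = 0.25. Within the first sitting the difference was 0.21, with 5 transgenic samples at 6.55 to 6.84 and 3 wild-type samples at 6.32 to 6.56 (exact permutation p = 0.0536, smallest possible 0.0179). With no background correction the difference was -0.035.

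Itgam, the Mac-1 alpha chain, varied more between the wild-type samples than between the transgenic ones. Its normalized log2 signals were 5.94, 6.03 and 6.15 (lowest, median, highest) in transgenic samples and 6.11, 5.89 and 5.76 in wild-type replicates 1, 2 and 3. All 7 transgenic samples lay above the wild-type mean, yet wild-type replicate 1 exceeded 6 of them. The means were 6.03 ± 0.07 (SD, n = 7) and 5.92 ± 0.18 (SD, n = 3), which differed by 0.11 (standard error 0.068, 95% interval -0.04 to 0.26). Limma gave an adjusted p of 0.819, and the exact permutation test gave p = 0.158. The value rests on the wild-type samples: it was 0.21 without wild-type replicate 1 and 0.034 without wild-type replicate 3.

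Fes went the other way. Its normalized log2 signals were 5.87, 5.95 and 6.04 (lowest, median, highest) in transgenic samples and 6.16, 5.96 and 6.10 in wild-type replicates 1, 2 and 3. All 7 transgenic samples lay below the wild-type mean, and wild-type replicate 2 lay inside the transgenic range. The means were 5.96 ± 0.06 (SD, n = 7) and 6.08 ± 0.10 (SD, n = 3), which differed by -0.11 (standard error 0.050, 95% interval -0.22 to -0.0013). Limma gave an adjusted p of 0.668 (unadjusted 0.0478), and the exact permutation test gave p = 0.0667. It was -0.14 within the first sitting (exact permutation p = 0.0536, n = 5 and 3), -0.067 without wild-type replicate 1, -0.17 without wild-type replicate 2 and -0.055 with arrays centred on the housekeeping genes.

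**Figure D2:**
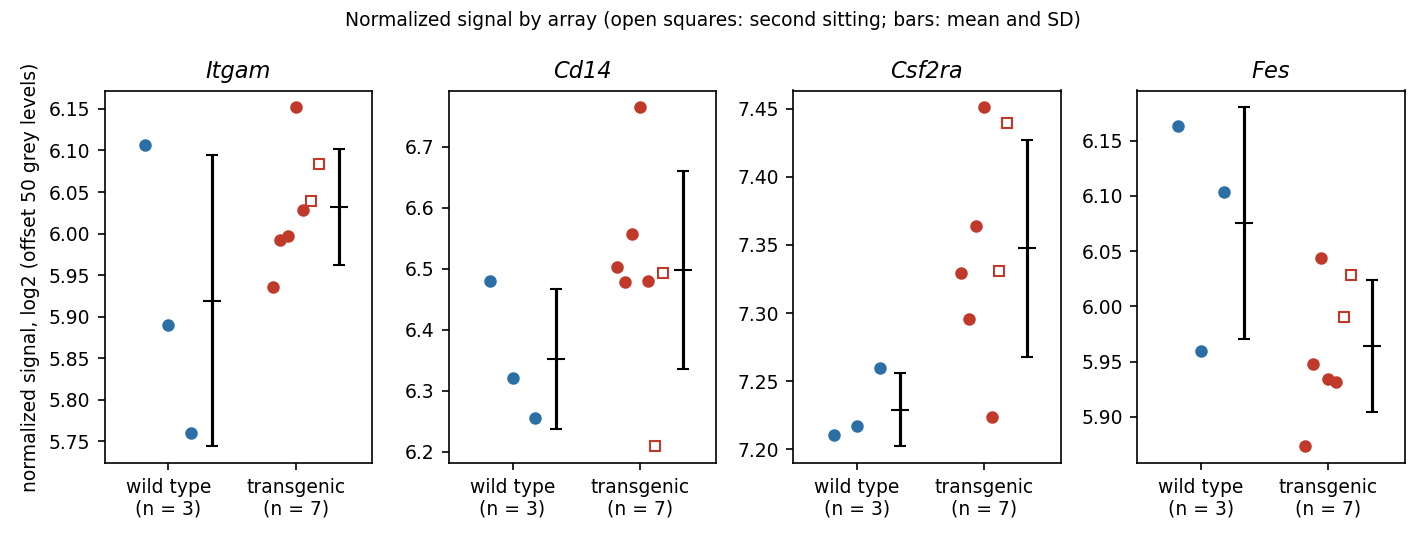
Normalized log2 signal (50 grey levels added) of each gene on the 3 wild-type arrays (blue) and the 7 transgenic arrays (red), with open squares for the second sitting and black bars for mean and SD; each panel has its own axis. The groups overlap in every panel, and the wild-type spread of Itgam (SD 0.18) exceeds its transgenic spread (SD 0.07).

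Part of this spread was spot noise. Duplicate spots within an array gave a single-spot SD of 0.03 on the log2 scale for Csf2ra, 0.06 for Itgam, 0.08 for Fes and 0.10 for Cd14, with a median of 0.07 over all genes. The SD of the gene over the 10 arrays was 0.09, 0.11, 0.09 and 0.16 in the same order, against a median of 0.08. For Fes the SD over arrays and the SD of a single spot were close to each other. The 2 are unlike measures, as the SD over arrays is that of a mean of 2 spots, which has less noise than 1 spot. Its 2 spots correlated over the arrays at r = 0.41 (the median gene at 0.44), and those of Csf2ra at 0.85, Cd14 at 0.74 and Itgam at 0.71, as a description over 10 arrays. With the first spot alone the Cd14 difference was 0.069 and with the second alone 0.22.

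The next comparison was whether the genes rose and fell together from array to array. Pearson's r was above 0 in each of the 3 pairs of surface genes and below 0 for Fes with each of them, and none of the 6 pairs passed. Itgam and Cd14 had Pearson's r = 0.62 (permutation p = 0.0556, adjusted over 6 pairs 0.324) and Spearman's rho = 0.45 (permutation p = 0.194, adjusted 0.556) over 10 arrays. Without transgenic replicate 4 and wild-type replicate 3, the 2 samples farthest from the median of Itgam, r was 0.15, so the relation rests on those samples. Cd14 and Csf2ra had r = 0.54 (permutation p = 0.108, adjusted 0.324) and rho = 0.52 (permutation p = 0.132, adjusted 0.556), and r = 0.48 without transgenic replicates 4 and 6. Itgam and Csf2ra had r = 0.45 (permutation p = 0.188, adjusted 0.377) and rho = 0.38 (permutation p = 0.278, adjusted 0.556), and r = 0.20 without the same 2 samples as for Itgam and Cd14. Transgenic replicate 4 alone carried much of these values: without it the 3 pairs, in this order, had r = 0.46, 0.26 and 0.27.

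**Figure D3:**
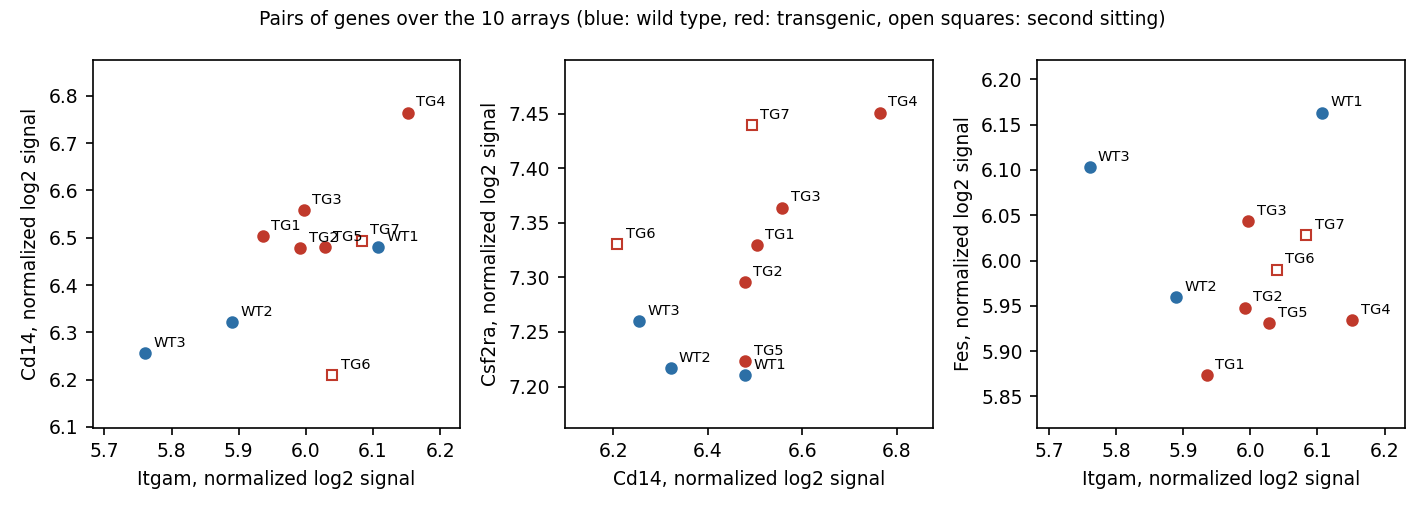
Normalized log2 signal of Cd14 against Itgam, Csf2ra against Cd14 and Fes against Itgam, 1 point per array (red TG, transgenic; blue WT, wild type; open squares, second sitting). TG4 stands at the top right of the first 2 panels and TG6 lies low for Cd14; the third panel shows no common slope over the 10 arrays (r = -0.05).

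In the first sitting alone (8 arrays, normalized again by themselves), Itgam and Cd14 had r = 0.86 (exact permutation p = 0.0100, adjusted 0.0600; rho = 0.74, exact p = 0.0458) and Cd14 and Csf2ra r = 0.78 (exact permutation p = 0.0241, adjusted 0.0722; rho = 0.64, exact p = 0.0962). Itgam and Csf2ra stood at r = 0.37 there (exact permutation p = 0.371). Without the 2 dim arrays r was thus higher in the first 2 of these pairs, and still short of the threshold after adjustment. Within the 7 transgenic arrays the same pairs had r = 0.41, 0.47 and 0.62 (exact permutation adjusted p = 0.663 for each). With each group's mean taken out, r was 0.52, 0.36 and 0.21 over 10 arrays.

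For Fes and the surface genes no relation passed. Over 10 arrays Fes had r = -0.05 with Itgam, -0.26 with Cd14 and -0.24 with Csf2ra (permutation adjusted p = 0.895, 0.594 and 0.594), and rho = 0.07, -0.22 and -0.19 (adjusted p = 0.865, 0.725 and 0.725). With each group's mean taken out the 3 values were 0.35, 0.017 and 0.26, and within the transgenic arrays 0.27, -0.18 and 0.36; the sign thus changed for some pairs and not for others. Leaving out transgenic replicate 4 and wild-type replicate 3, Fes and Itgam had r = 0.70 (exact permutation p = 0.0535, n = 8), and the other 2 pairs stayed at -0.21 and -0.27 without their own 2 farthest arrays.

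The points share the depth of the array and, for the surface genes, a place on the membrane. Itgam, Cd14 and Csf2ra were spotted in the same block and Fes in another. With each block of the membrane centred on its own median, r was 0.51 for Itgam and Cd14, 0.67 for Cd14 and Csf2ra, and 0.16 for Itgam and Csf2ra. With whole arrays centred on their median and no step for blocks, r was 0.50, 0.65 and 0.18 in the same order. Both centrings took the place of quantile normalization, so the block values compare with these and not with the values above. Over the 8 first-sitting arrays the array's median signal above background had r = 0.53 with Itgam, 0.68 with Cd14, 0.66 with Csf2ra and -0.53 with Fes (exact permutation adjusted p = 0.183, 0.150, 0.150 and 0.183). The gene values here were quantile-normalized over all 10 arrays together, and not anew for the 8. Over all 10 arrays these were -0.13, 0.48, -0.26 and -0.22 (adjusted p = 0.725, 0.667, 0.725 and 0.725). In the first sitting these signs were those of the group differences, and the part of depth in the covariation was not tested.

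Other myeloid genes on the membrane give the background for a reading of myeloid content. Of 49 myeloid and granulocyte markers listed, 16 were measured, the 3 surface genes among them. Of the 16, 10 were above background on all arrays, where 357 of 597 genes were. None of the 16 passed (limma adjusted p from 0.606 to 0.990), 9 were higher and 7 lower in transgenic splenocytes, and the median difference was 0.016, where 309 of 597 genes (51.8%) were higher and the median of all genes was 0.0019. These counts and this median include the 3 surface genes, which were all higher. The summed reading, as the mean of the 16, ran from 6.13 to 6.24 in the transgenic group and from 6.13 to 6.19 in the wild-type group. Without the 3 surface genes, the mean of the other 13 ran from 6.03 to 6.12 in the transgenic group and from 6.06 to 6.10 in the wild-type group. The 3 surface genes had the highest differences of the 16. They and the list were chosen with earlier results of these data known, so this rank carries no evidence. Next came the mannose receptor Mrc1 of macrophages at 0.07, then Cxcr2, a chemokine receptor of neutrophils, and Ccr2, which draws monocytes from the marrow, both at 0.04.

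Markers near in role to the surface genes had values on both sides of 0. The receptor of macrophage colony-stimulating factor, Csf1r, stood at 7.19 ± 0.17 (SD, n = 7) in the transgenic group and at 7.16 ± 0.13 (SD, n = 3) in the other, which differed by 0.03. Itgb2, the beta 2 chain that pairs with Itgam, differed by -0.0070 (standard error 0.115), and Itgal, the alpha chain of LFA-1 that uses the same partner and is found on lymphocytes too, had -0.11. The G-CSF receptor Csf3r of neutrophils stood at -0.01, and the Src family kinase Fgr of myeloid cells at -0.02. Over the 10 arrays the mean of the 13 other markers had r = 0.12 with Itgam, 0.38 with Cd14, 0.29 with Csf2ra and -0.22 with Fes (permutation adjusted p = 0.725 for Itgam and 0.717 for the others), and rho = -0.03, 0.43, 0.13 and -0.38 (adjusted p = 0.946, 0.558, 0.946 and 0.558). Without the 2 arrays farthest in that mean, r was 0.43, 0.65, 0.04 and -0.51.

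**Figure D4:**
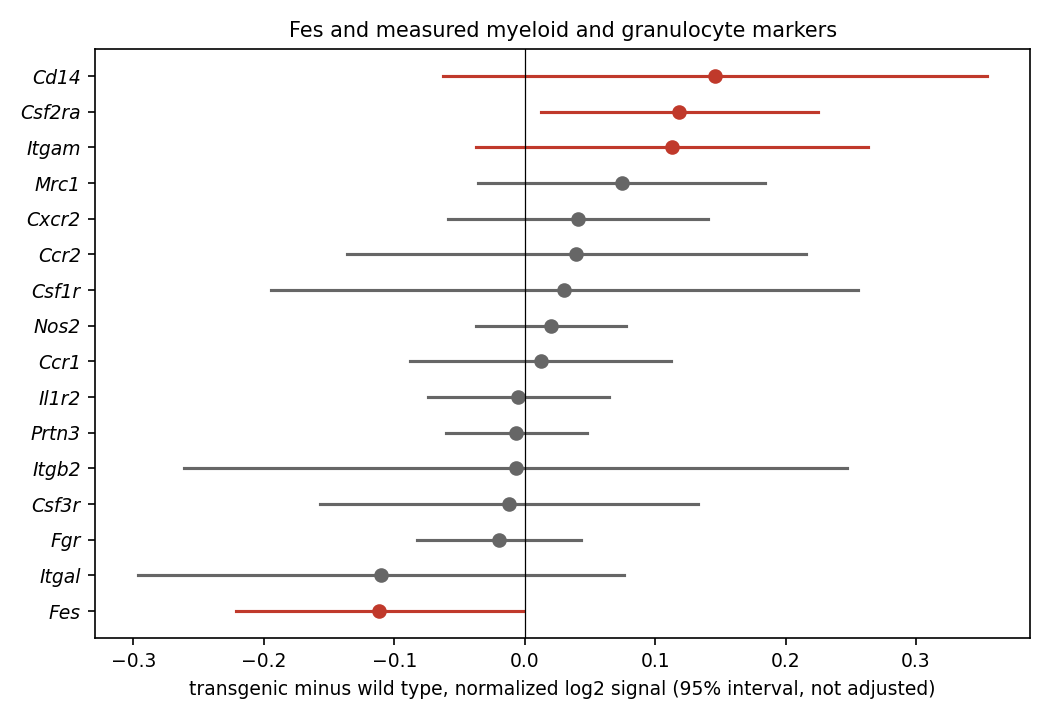
Difference in normalized log2 signal, transgenic minus wild type, with its unadjusted 95% interval from limma, for Fes and 15 of the 16 measured myeloid and granulocyte markers (Itgam, Cd14, Csf2ra and Fes in red, others in grey). The 3 surface genes stand at the top, between 0.11 and 0.15, Fes at the bottom at -0.11, and all intervals drawn but those of Csf2ra and Fes include 0. The genes in red were chosen with earlier results of these data known, so their places carry no evidence.

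The pathways around each gene were described from lists of their components. Of 30 genes of the GM-CSF receptor family and its signalling, 15 were measured and 0 passed, with 10 higher, 5 lower and a median of 0.03. Besides Csf2ra, the phosphatase Ptpn11 stood at 0.05 and the growth factor gene Csf1 at -0.04 (limma adjusted p = 0.936 for both). Of 34 genes of CD14 and the lipopolysaccharide response, 17 were measured and 0 passed, with 12 higher, 5 lower and a median of 0.02. The inflammatory caspase Casp4, which senses lipopolysaccharide inside the cell, stood at -0.08, the NF-kB subunits Rela at -0.17 and Nfkb1 at -0.06 (adjusted p = 0.570, 0.936 and 0.936). The other NF-kB subunits measured, Relb and Rel, named after their values were seen, stood at 0.037 and 0.015, so the subunits lay on both sides of 0.

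Integrins and tyrosine kinases were read the same way. Of 27 integrins and ligands, 12 were measured and 0 passed, with 6 higher, 6 lower and a median of 0.02. Itgam had the smallest p of them, ahead of Vcam1, an endothelial and stromal ligand of integrin alpha 4, at 0.09 and the laminin-binding chain Itga6 at 0.13 (adjusted p = 0.936 for both). Of 29 cytoplasmic tyrosine kinases, 11 were measured and 0 passed, with 3 higher, 8 lower and a median of -0.05. Fes had the smallest p of them, and the T cell kinases Lck and Fyn followed at -0.18 and -0.09 (adjusted p = 0.819 for both), then Csk, which restrains Src family kinases, at 0.07.

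Markers of lymphocytes, the main cells of the spleen, are given beside these values. All 6 measured B cell markers were lower in transgenic splenocytes, as 48.2% of all genes were, with a median difference of -0.11, and 0 passed. Among them Pax5, at -0.10, had at least 1 spot in a bright local background (above 100 grey levels) on all 10 arrays. At an unadjusted limma p under 0.05 stood 3 of the 6, and 7.20% of all genes. The lowest of the 6 was Cd22 at -0.24, the gene of which the transgene is a form. The sources used here do not give the probe sequences, so whether this spot detects the transcript of the transgene is not known. The list mean ran from 6.33 to 6.54 in transgenic and from 6.49 to 6.68 in wild-type samples. Of 11 T cell markers 8 were lower, with a median of -0.04 and means from 6.12 to 6.26 against 6.18 to 6.25. The B cell mean had r = -0.32 with Itgam, -0.28 with Cd14, -0.18 with Csf2ra and 0.43 with Fes over the 10 arrays (permutation adjusted p from 0.583 to 0.621), with rho = 0.03, -0.07, -0.18 and 0.36 (adjusted p = 0.947 for each). Without the 2 arrays farthest in the B cell mean, r was 0.31, 0.22, 0.11 and 0.61. Over the 8 first-sitting arrays, in values normalized over all 10 together, r was -0.36, -0.43, -0.29 and 0.42 (exact permutation adjusted p = 0.480 for each). The part of the lymphocyte share in the values of the 4 genes was not tested.

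Genes whose profiles were most like each of the 4, by Pearson's r over the 10 arrays among 325 genes that were above background and free of a bright local background on all arrays, were listed next, with no test. Nearest to Itgam were the ubiquitin-conjugating enzyme Ube2b (r = 0.87), a gene printed as interleukin-3 receptor (0.83) and Bmp8a (0.78). Nearest to Cd14 were Akt1 (0.85), Ube2b (0.84) and the keratin Krt18 (0.78). Nearest to Csf2ra were the integrin chain Itga6 (0.83), Cd4 (0.80) and the repair gene Rad23b (0.75). Nearest to Fes were the adaptor Shc3 (0.81), the B cell co-activator Pou2af1 (0.71) and Ptprcap (0.70), a CD45-associated protein of lymphocytes. Each surface gene had other genes closer to it than the remaining surface genes were. The highest r among 325 genes over 10 arrays is likely to exceed that with a few chosen genes, so this carries no evidence about the surface genes. The interleukin-3 receptor, Itga6 and Cd4 shared the block of the gene they resembled.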

How the data were processed

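Total RNA was labelled with 32P and hybridised to 1 membrane per sample, 7 transgenic and 3 wild-type, per the labels' protocols. What the authors deposited for each array is spot intensity, not normalized: per the file headers, mean grey levels inside a spot and in a surrounding ring, from automatic segmentation of an inverted image. What the spot codes mean is not stated there. The authors also deposited a table of processed values for 588 entries, taken as log2 from their range; their scaling and centring stay unknown, and the table served only for a count of genes.

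Of 597 printed names, 105 were matched by hand to mouse symbols as needed here. Background was corrected with normexp (offset 50), gene spots were quantile normalized, duplicates averaged on the log2 scale, and all genes fitted with limma 3.58.1 in R 4.3.3 (lmFit, eBayes, two-sided, Benjamini-Hochberg, threshold 0.05). Local background above 100 grey levels was called bright. Arrays were ordered by the clock time of quantification, without the date, and a gap of more than 60 minutes between consecutive arrays began a new sitting. Correlations used 100000 permutations for 10 arrays and all permutations below that (Python 3.11.15, scipy 1.17.1, numpy 2.4.6), adjusted over the 6 pairs, or over the 4 genes for each of 4 array measures. The number of arrays limits the precision. The members and gene lists were chosen with earlier results of these data known. The genes named were the 4, any measured myeloid marker, up to 4 members with the smallest p of each other list, and the 3 most alike genes for each of the 4; some genes that fall under this rule are not reported here. Other normalizations, background corrections, offsets, spot filters, single spots, the sitting as a block, the first sitting alone and each array left out were tried; centring on membrane blocks was chosen after seeing the data. Housekeeping centring used the 9 named genes spotted outside the main field of the membrane. Simulated data with known changes were used to test the scripts. Promoters came from RefSeq (GRCm38.p6).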

Additional observations from a re-analysis of the deposited data

How the results depend on the processing

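None of the 4 genes passed under any of 24 alternatives (limma adjusted p from 0.400 to 0.9997), and 0 genes were called over the membrane in all 27. At an unadjusted p under 0.05, 24 to 53 genes stood there, 43 in the reported fit, 24 with housekeeping centring and 27 with centring on membrane blocks. The sitting as a block left 0 called, with Itgam at 0.10, Cd14 at 0.20, Csf2ra at 0.10 and Fes at -0.13. Unadjusted limma p there was under 0.05 for Cd14 (0.0419) and Fes (0.0335), among 53 genes, and no longer for Csf2ra (0.0707). Itgam stayed above 0 and Fes below 0 throughout, with the offset removed at 0.76 and -0.51, and with an offset of 200 at 0.033 and -0.034. With no background correction Cd14 turned to -0.035 and Csf2ra to -0.018, and the correlation of Itgam with Cd14 rose to 0.89 (permutation adjusted p = 0.00462); the cause was not tested. The median of the myeloid markers was 0.077 with arrays centred on the housekeeping genes, which moved the median of all genes to 0.065, -0.033 with no background correction, 0.055 with an offset of 0 and -0.0012 without transgenic replicate 2. Leaving out 1 array at a time, the differences ran from 0.034 to 0.21 for Itgam, 0.10 to 0.22 for Cd14, 0.10 to 0.14 for Csf2ra and -0.17 to -0.067 for Fes. The correlation of Itgam with Cd14 ran from 0.46 to 0.83, and its adjusted p was 0.0458 without transgenic replicate 6 (exact permutation). That of Itgam with Fes ran from -0.38 to 0.42 (above 0 without transgenic replicate 4 or wild-type replicate 3) and that of Csf2ra with Fes from -0.38 to 0.040 (above 0 without wild-type replicate 1). The correlation of Itgam with Fes also turned to 0.034 with cyclic loess, 0.37 with housekeeping centring, 0.18 with the second spot alone, 0.27 in transgenic arrays and 0.35 with group means taken out. Cd14 with Fes turned to 0.15 with housekeeping centring and 0.017 with group means taken out. Csf2ra with Fes turned to 0.039, 0.36 and 0.26 with housekeeping centring, in transgenic arrays and with group means taken out. No paired analysis was possible because the labels give no number that the 2 groups share. Faint spots of Itgam and Fes limit what can be read of them.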

Other observations

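Markers of other cells that splenocytes can hold were few on the membrane. Of the erythroid list, 4 genes were measured, with the erythroid factor Klf1 at 0.20 and the erythropoietin receptor Epor at 0.15 in transgenic minus wild-type log2 signal, and Tfrc and Nfe2 at -0.02 and -0.0072 (limma adjusted p from 0.972 to 0.990). The erythroid mean ran from 6.02 to 6.69 over the transgenic samples and from 6.19 to 6.36 over the wild-type samples. Of megakaryocyte and platelet genes 2 were measured, with F2r at 0.09, and of NK and cytotoxic genes 3, with Fasl at 0.07, Gzmc at 0.04 and Gzmb at -0.02. Stromal and endothelial genes had 6 of 8 lower, with a median of -0.03, and 6 measured housekeeping genes had 3 higher and 3 lower, with a median of -0.0032. That median joins wide extremes: Rps29 at -0.52 and Sdf4 at 0.35 were the lowest and the highest differences of all 597 genes, and Actb stood at -0.32. At an unadjusted p under 0.05 stood 3 of the 6, and 7.20% of all genes. This list of 6 is not the set of 9 genes used for housekeeping centring. None of the genes of these lists passed.

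In the transgenic group, 16 values (the 4 genes and 12 list means) were screened for a single outlying array. The screen found 0, with about 0.8 to be found by chance. The nearest for a member was Cd14 on transgenic replicate 6, at 6.21.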
